A study of Mus musculus with 6 samples.

Results

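The TRIM genes encode proteins with a tripartite motif, a RING finger, 1 or more B-box zinc fingers and a coiled coil, and most of them act as ubiquitin ligases. The family was taken as the protein-coding genes of the GENCODE M21 mouse annotation (GRCm38) whose symbol starts with Trim and a digit. Of 68 such genes, 66 were among the 49328 genes of the table, while Trim31 and Trim40 were not analysed here. The 9 neighbouring genes on chromosome 7 (Trim34a, Trim5, Trim12a, Trim34b, Trim12c, Trim30b, Trim30c, Trim30a and Trim30d) were set beside the other 57 members.

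RNA was sequenced from cultured cells labelled mesenchymal stromal cells (MSCs), obtained by digestion of whole bone marrow from CB6F1 (F1 hybrid) mice. The mice had aGVHD, the acute form of graft-versus-host disease, in which donor immune cells attack the recipient. Cells of the aGVHD_R group (3 libraries) received a compound labelled only R at 0.5 um, with the unit as labelled, and those of the aGVHD_V group (3 libraries) its vehicle, DMSO. All 6 libraries thus came from diseased mice, and neither the nature of R nor the treatment time, the age of the mice or any pooling of animals is given. The comparison asks which TRIM transcripts differed between R-treated and vehicle-treated cells.

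In cells, the domain at the C-terminal end of a TRIM protein decides what it binds. Those with a SPRY domain include many antiviral and immune proteins, and several are induced by interferon. Primate TRIM5 proteins recognise retroviral capsids, Trim21 binds antibody in the cytosol, and Trim25 modifies the RNA sensor RIG-I. Other classes carry NHL repeats, a plant homeodomain finger with a bromodomain (the chromatin cofactors Trim24, Trim28 and Trim33), or domains that bind microtubules.

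R-treated cells had lower levels of 8 TRIM genes and a higher level of 1, among 34 that were high enough to be tested (1 FPKM or more in 3 or more of the 6 libraries; FPKM are fragments scaled to gene length and library depth). The 8 were Trim30c, Trim30d, Trim30a, Trim34a, Trim12c and Trim12a in the chromosome 7 cluster and Trim21 and Trim14 outside it, and the 1 was Trim16. Of these, Trim30c reached the filter only through its vehicle values, so its place in these counts already required a difference. Trim30a fell from 19.7 ± 2.96 to 5.94 ± 1.4 FPKM (SD, n = 3 in each group), while the most abundant member, Trim28, stood at 65.8 ± 1.35 and 67.4 ± 2.99 FPKM. In the background of 11862 tested genes, limma called 6.82% at an adjusted p under 0.05, that is 4.43% lower and 2.39% higher in R. The count of 8 lower TRIM genes was 4 without R replicate 2, vehicle replicate 1 or vehicle replicate 2, and 5 without R replicate 1. A level of a bulk culture cannot tell fewer cells of a type from less RNA per cell.

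The label of the cells was checked against markers, at an estimated depth of 17060000 to 21730000 reads a library. Of 19 macrophage markers all were tested, 5 were lower in R and 0 higher, beside 4.43% lower and 2.39% higher of all tested genes. Their median log2 change was -0.53. Their summed level was 14380 to 18162 FPKM in R libraries and 17704 to 23619 FPKM in vehicle libraries, and none was at 0. The 5 were the Fc receptor genes Fcgr1 (6.41-fold lower in the means) and Fcgr3 (1.79-fold), Aif1 (3.176-fold), the scavenger receptor gene Msr1 (2.77-fold) and the integrin gene Itgam (2.02-fold). In 13 of the 19 the R values all lay below the vehicle values, against 15.5% of all tested genes. The same number, each lower in R, had an unadjusted p under 0.05. At that level 12.6% of all tested genes were lower and 11.4% higher. The change was negative in 18. The exception was Cd68, at 666 ± 20.9 FPKM with vehicle and 723 ± 62.2 FPKM with R, while Csf1r stood at 494 ± 66.6 and 401 ± 45.1 FPKM.

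The 13 T and NK cell markers summed to 8.34 to 15.02 FPKM with vehicle and 3.06 to 8.03 FPKM with R, with Ncr1 and Klrb1c at 0 in every library. Of the 3 that were tested, 1 (Nkg7) was lower in R, beside 4.43% of all tested genes. Nkg7 reached the filter only through its vehicle values. The 14 marrow stroma markers summed to 600 to 974 FPKM with vehicle and 965 to 1385 FPKM with R. They ranged widely: Col1a1 averaged 214 and 479 FPKM, Itgb1 233 and 305 FPKM and Pdgfrb 33.9 and 54.4 FPKM, while the 3 that were too low to be tested, Lepr, Nt5e and Thy1, averaged 0.115, 0.384 and 1.04 FPKM with vehicle and 0.112, 0.449 and 0.215 FPKM with R. Of the 11 stroma markers tested, 0 passed limma's threshold, which 6.82% of all tested genes passed. Among these 11 the log2 change was positive in 7 and negative in 4, and ran from -1.31 to 1.70. An unadjusted p under 0.05 was found for 5 (Pdgfrb, Itgb1, Col1a1, Cd200 and Mcam), each higher in R without overlap. Over all tested genes 11.4% were higher at that level and 13.9% were higher without overlap. The macrophage sum was above the stroma sum in every library. The part of these markers in the TRIM results was not tested.

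The cluster lies within 263 kb of chromosome 7 (104244457 to 104507849), and its 9 genes are tandem copies of a few ancestral genes. Sequences around their start sites are shown because many interferon-induced genes hold an interferon-stimulated response element (ISRE) near the start. The ISRE is bound by STAT and IRF transcription factors. RefSeq promoter windows (GRCm38.p6), 250 bases before to 50 after each start, were searched on both strands for the ISRE core, which is GAAA, any 2 bases and GAAA again. They were also searched for TTCNNNGAA, the gamma-activated site of STAT dimers. These 2 motifs can overlap each other in a sequence. The first motif occurred in 3.44% of all 32851 windows and the second in 8.3%.

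Windows were given for 51 of the 66 members, and 9 of these genes held the ISRE core: Trim34a, Trim5, Trim12a, Trim12c, Trim30a, Trim30d, Trim21, Trim26 and Trim2. Thus 6 of 7 members with a window that were lower in R held it, as did 2 of the 19 tested members that did not pass (Trim5 and Trim26) and 1 of 25 that were too low to be tested (Trim2). Over the whole table, it was found in 77 of the 384 genes with a window that were lower in R (20.1%), and in 248 of 8082 tested genes that did not pass (3.07%). A match is a description of letters and no evidence of binding. The stretches around the core are shown for the cluster genes, for Trim21 and for Trim26, in which the level did not pass, with the core in capitals and each read 5′ to 3′ on the strand of its gene.
Trim34a (chr7:104244447-104244486, + strand): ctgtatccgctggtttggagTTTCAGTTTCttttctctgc
Trim5 (chr7:104288126-104288175, - strand): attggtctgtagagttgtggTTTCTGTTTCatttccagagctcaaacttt
Trim12a (chr7:104315466-104315505, - strand): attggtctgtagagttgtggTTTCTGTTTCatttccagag
Trim12c (chr7:104353349-104353398, - strand): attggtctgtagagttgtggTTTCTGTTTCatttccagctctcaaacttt
Trim30a (chr7:104465200-104465249, - strand): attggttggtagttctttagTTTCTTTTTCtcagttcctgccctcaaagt
Trim30d (chr7:104507861-104507910, - strand): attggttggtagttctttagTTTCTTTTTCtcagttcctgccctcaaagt
Trim21 (chr7:102565453-102565489, - strand): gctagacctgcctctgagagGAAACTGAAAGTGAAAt
Trim26 (chr17:36836966-36837021, + strand): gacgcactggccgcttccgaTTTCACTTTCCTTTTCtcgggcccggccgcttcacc

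In Trim5, Trim12c, Trim30a and Trim30d the core began 49, 29, 36 and 41 bases before the RefSeq start site. In Trim34a and Trim12a it began 10 bases after it. Trim21 and Trim26 each held 2 overlapping copies, which began 13 bases after the start in Trim21 and 160 bases before it in Trim26. The cluster's matches are not separate observations, because the windows are duplicated sequence. Those of Trim5 and Trim12a were identical over all 241 aligned bases, those of Trim12a and Trim12c at 247 of 260, and those of Trim30a and Trim30d at 276 of 295. Trim30a has a second RefSeq start site, where the same core began 2 bases after the start.

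Trim30c, the cluster gene with the deepest fall, had no ISRE core in its window. It held the gamma-activated site, shown here in capitals.
Trim30c (chr7:104400812-104400860, - strand): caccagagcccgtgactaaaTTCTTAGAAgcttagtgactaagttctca
The windows of Trim30b and Trim34b, which were too low to be tested, held neither motif. The gamma-activated site was also found in Trim46, which was tested and did not pass. It was found as well in Trim45, Trim38 and Trim15, which were too low to be tested. Windows for Trim14 and Trim16 were not used here.

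Longer stretches are given for Trim30a, the most abundant gene of the cluster, and for Trim21, the lower gene with paired cores, to show where the core lies relative to the start. They run from 250 bases before the start to 30 after it, again with the ISRE core in capitals.
Trim30a (chr7:104465164-104465443, - strand): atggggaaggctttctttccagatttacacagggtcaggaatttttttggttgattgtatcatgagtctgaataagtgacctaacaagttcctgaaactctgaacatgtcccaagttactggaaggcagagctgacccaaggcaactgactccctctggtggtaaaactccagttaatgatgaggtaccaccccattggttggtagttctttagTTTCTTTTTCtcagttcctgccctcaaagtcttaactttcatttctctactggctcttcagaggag
Trim21 (chr7:102565453-102565732, - strand): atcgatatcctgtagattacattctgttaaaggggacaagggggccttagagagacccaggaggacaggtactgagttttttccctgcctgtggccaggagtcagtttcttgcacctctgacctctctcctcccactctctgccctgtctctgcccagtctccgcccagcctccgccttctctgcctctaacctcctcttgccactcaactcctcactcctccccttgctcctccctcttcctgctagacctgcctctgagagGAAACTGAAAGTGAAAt

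The largest fitted falls in the family were those of Trim30c, Trim30a and Trim30d. Trim30a, an interferon-inducible protein that restrains Toll-like receptor signalling by removing the TAK1-binding proteins TAB2 and TAB3, had 22.7, 19.5 and 16.8 FPKM in vehicle replicates 1, 2 and 3. In R replicates 1, 2 and 3 it had 7.47, 4.72 and 5.64 FPKM. Every R library lay well below every vehicle library, a 3.31-fold difference of the means (log2 change -1.58, SE 0.17, adjusted p = 0.0028; log2 changes are of FPKM + 1, R minus vehicle, which understates low genes).

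Trim30d, its neighbour on the same strand, had 6.16, 4.83 and 4.22 FPKM with vehicle and 1.44, 1.11 and 1.46 FPKM with R. The groups did not overlap, and the fold of the means was 3.79 (log2 change -1.37, SE 0.14, adjusted p = 0.0027). Trim30c had 3.04, 2.46 and 2.24 FPKM with vehicle and 0.134, 0.259 and 0.129 FPKM with R. That is an estimated 77 to 89 reads in a vehicle library against 4 to 8 in an R library, and a 14.8-fold difference of the means (log2 change -1.60, SE 0.14, adjusted p = 0.001).

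Trim30c was the 1 tested member with 0 R libraries at 1 FPKM or more. It reached the filter only through its vehicle values, so its entry among the tested genes already required a difference. Trim5 had 1 such R library and 3 such vehicle libraries, so it too needed its vehicle values to be tested. Trim30b was too low to be tested. It had 0.163, 0.121 and 0.133 FPKM with vehicle and 0.0611, 0.0517 and 0.0588 FPKM with R, or 17 to 21 against 7 to 10 estimated reads, and its groups did not overlap. The calls of Trim30a, Trim30c and Trim30d were kept in each of the 6 fits that left out 1 library.

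**Figure D1:**
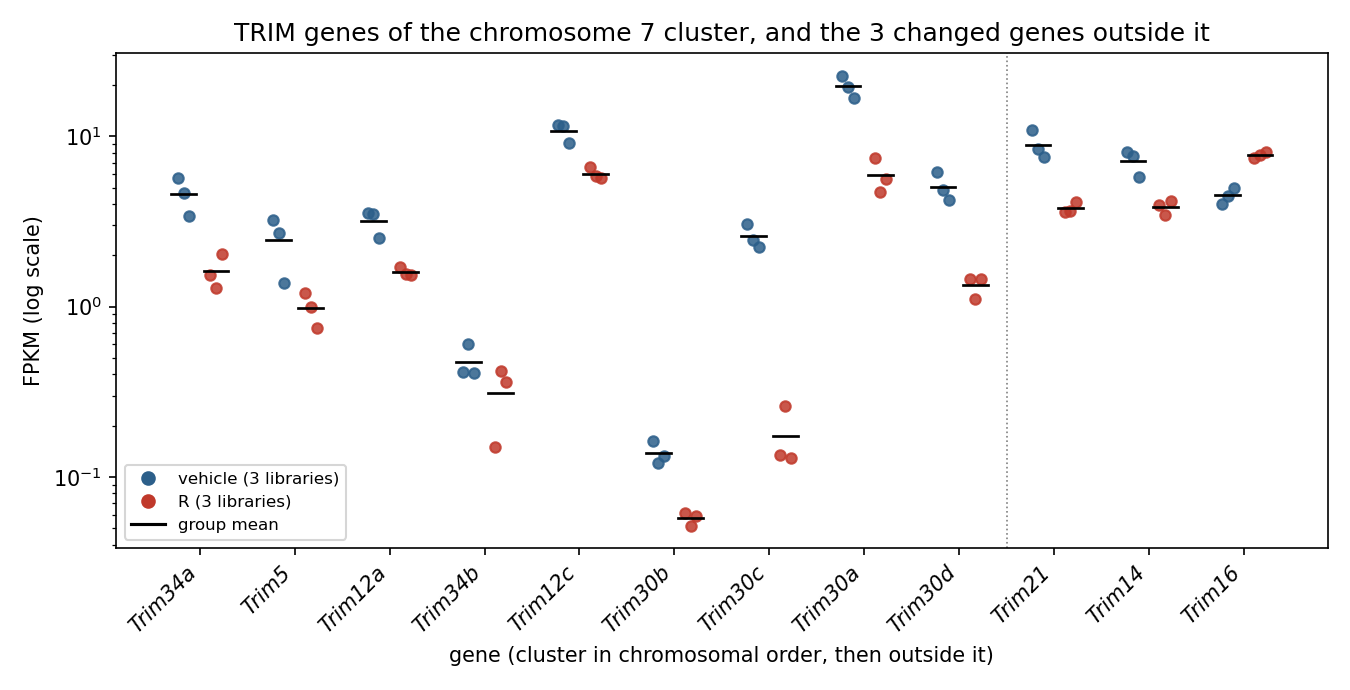
FPKM of each library (points, log axis) and group means (lines) for the 9 genes of the chromosome 7 cluster in chromosomal order, and for Trim21, Trim14 and Trim16. The 3 R libraries lie below the 3 vehicle libraries in 8 of the 9 cluster genes and in Trim21 and Trim14, overlap with them in Trim34b, and lie above them in Trim16.

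The Trim34 and Trim5/Trim12 genes encode relatives of the primate antiretroviral proteins, and of these Trim34a, Trim12c and Trim12a fell. Trim34a had 5.72, 4.63 and 3.41 FPKM with vehicle and 1.53, 1.29 and 2.03 FPKM with R, without overlap (2.84-fold; log2 change -1.09, SE 0.18, adjusted p = 0.017). Its call ended without R replicate 1 or 2 or vehicle replicate 1 or 2 (adjusted p up to 0.063) and when low genes were kept in the test (adjusted p = 0.074). Trim34b, its near-copy, had 0.412, 0.606 and 0.405 FPKM with vehicle and 0.149, 0.421 and 0.359 FPKM with R, so that its groups overlapped, and it was not tested.

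Trim12c, the second most abundant gene of the cluster, had 11.7, 11.5 and 9.09 FPKM with vehicle and 6.60, 5.83 and 5.67 FPKM with R. All R values lay below all vehicle values, by 1.79-fold in the means (log2 change -0.74, SE 0.12, adjusted p = 0.015). That call ended without R replicate 2 or vehicle replicate 1 or 2 (adjusted p up to 0.062). With low genes kept its adjusted p was 0.0501.

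Trim12a had 3.54, 3.50 and 2.53 FPKM with vehicle and 1.70, 1.56 and 1.53 FPKM with R, a 2.0-fold difference without overlap (log2 change -0.68, SE 0.13, adjusted p = 0.027). The call held in 1 of the 6 fits that left out a library, the fit without vehicle replicate 3 (adjusted p up to 0.11 in the others), and ended when no filter was applied (adjusted p = 0.099). Trim5 had 3.24, 2.72 and 1.38 FPKM with vehicle and 1.21, 0.995 and 0.750 FPKM with R. The groups did not overlap, but vehicle replicate 3 came close to the R libraries, and the difference did not pass (log2 change -0.76, 95% interval -1.29 to -0.23, adjusted p = 0.093). Without vehicle replicate 3 it did (log2 change -1.01, adjusted p = 0.017).

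In the cluster as a whole, 6 of 7 tested genes were called lower and 0 higher, and the log2 changes ran from -1.60 to -0.68 with a median of -1.09. These values include Trim30c, at the -1.60 end, which reached the filter only through vehicle. They also include Trim5, which needed its vehicle values to be tested. The count of 6 was 3 without R replicate 2, vehicle replicate 1 or vehicle replicate 2, and 3 of 9 with low genes kept. Outside it, 2 of 27 tested members were lower and 1 higher, with changes from -1.04 to 0.68 and a median of 0.03. Over all tested genes 4.43% were called lower and 2.39% higher, the median was 0.00 and the central 90% ran from -0.58 to 0.58. The rule that sets the cluster apart did not use these values, but the family was chosen with results of this comparison known. No test was made of the lists.

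**Figure D2:**
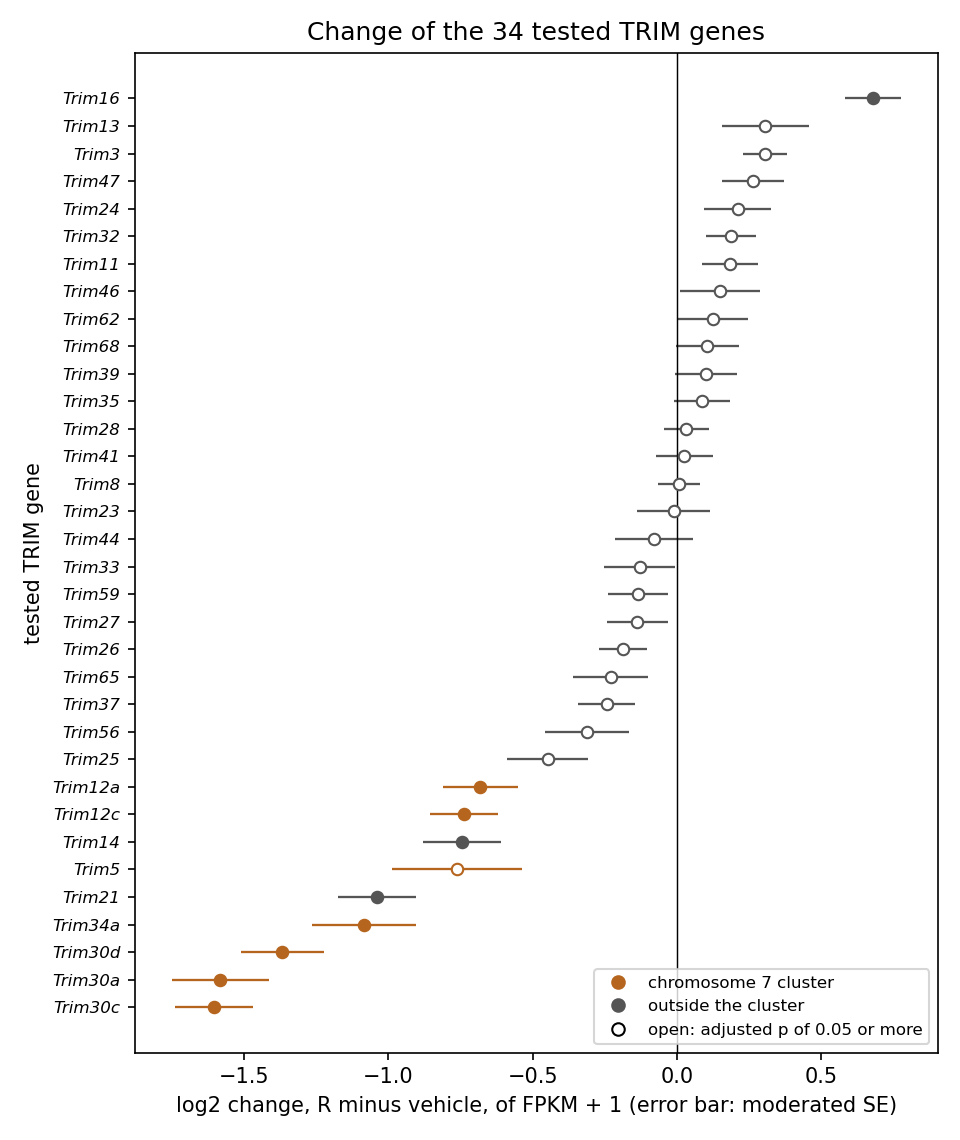
Log2 change (R minus vehicle, FPKM + 1) with its moderated SE for each of the 34 tested TRIM genes. The 7 tested cluster genes lie between -1.60 and -0.68, with Trim21 and Trim14 among them and Trim16 alone at the upper end at 0.68.

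Summed over its 9 genes, the cluster had 56.7, 49.9 and 40.2 FPKM in vehicle replicates 1, 2 and 3 and 20.3, 16.2 and 17.6 FPKM in R replicates 1, 2 and 3. This was 9.59% to 12.3% of the summed FPKM of the family in vehicle libraries and 4.05% to 4.84% in R libraries. The other 57 genes summed to 394 ± 13.1 FPKM with vehicle and 396 ± 9.45 FPKM with R. The cluster genes shared an order among the vehicle libraries: replicate 1 was the highest and replicate 3 the lowest of the vehicle libraries in each of the 7 tested genes. The summed macrophage markers had the same order, at 23619, 19761 and 17704 FPKM in vehicle replicates 1, 2 and 3, and their part in it was not tested. In R, replicate 1 was the highest in 4 of 7.

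Around the cluster, little or no RNA was listed. Within 300 kb on either side lie Trim6 and 29 other protein-coding genes, most of them olfactory receptors. All 29 were listed at 0 FPKM in every library. Trim6, which makes free ubiquitin chains in interferon signalling, had 0.467, 0.327 and 0.357 FPKM with vehicle and 0.310, 0.136 and 0.158 FPKM with R. It was too low to be tested, and its groups did not overlap.

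**Figure D3:**
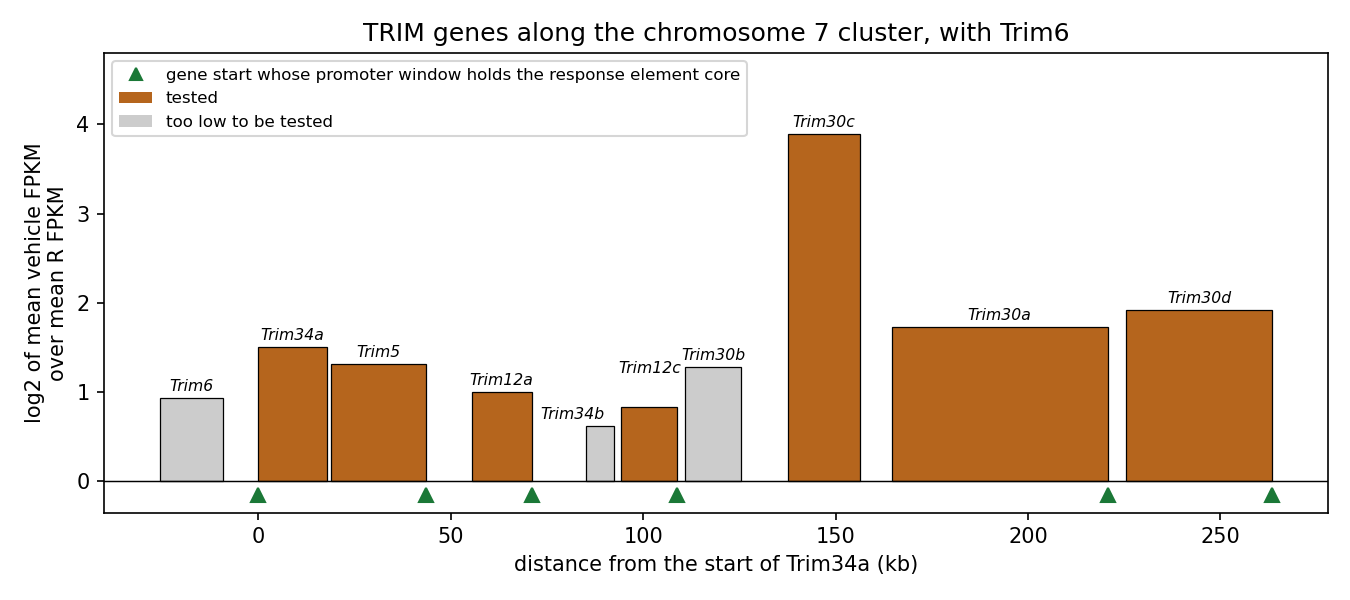
Log2 ratio of mean vehicle FPKM to mean R FPKM (bar height) for Trim6 and the 9 cluster genes, drawn over the extent of each gene as distance from the start of Trim34a. Triangles mark gene starts whose promoter window holds the ISRE core: 6 of the 9 cluster genes, but neither Trim30c, the tallest bar at a 14.8-fold ratio, nor Trim6, Trim34b or Trim30b.

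Reads of near-identical copies can be shared between genes, and the authors' handling of such reads is not stated in the sources. Of the distinct 50-base stretches in the transcripts of Trim34a, 59.7% also occur in transcripts of another gene, and 39.8% occur in those of Trim34b. For Trim5 the share was 36.6%, for Trim12c 33.7% and for Trim12a 10.5%, mostly among these 3 genes. The values of Trim34a, Trim34b, Trim5 and Trim12c are therefore uncertain. The Trim30 genes are more distinct: 5.98% of the stretches of Trim30a, 7.49% of Trim30d, 1.48% of Trim30b and 0.66% of Trim30c were shared.

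Other TRIM genes on chromosome 7 gave mixed results. Trim21 (102557921 to 102565486), the cytosolic antibody receptor, had 10.8, 8.42 and 7.52 FPKM with vehicle and 3.60, 3.65 and 4.11 FPKM with R. The groups stood well apart, at 2.35-fold (log2 change -1.04, SE 0.13, adjusted p = 0.0066), and the call was kept whichever library was left out. Just 0.216% of its 50-base stretches occur in another gene.

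Trim3, a brain-enriched ligase with NHL repeats, lies beyond the cluster at 105604463 to 105633571. It had 13.3, 13.1 and 13.2 FPKM with vehicle and 16.4, 15.9 and 17.4 FPKM with R. The R values all lay above the vehicle values, but the difference did not pass (log2 change 0.31, SE 0.08, adjusted p = 0.06). It passed with equal library medians (adjusted p = 0.044) and with a stricter filter on low values (adjusted p = 0.049). Trim68, which lies near Trim21 at 102677582 to 102687327, stood at 2.41 ± 0.251 FPKM with vehicle and 2.67 ± 0.244 FPKM with R (log2 change 0.10, adjusted p = 0.62). Trim66 averaged 0.0304 FPKM with vehicle and 0.0559 FPKM with R, too low to be tested.

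Among 16 tested members with a role in innate immune signalling outside the cluster, 2 were lower, 0 higher and 14 did not pass. The share of all tested genes was 4.43% lower and 2.39% higher. Trim14, an adaptor of the mitochondrial antiviral protein MAVS, had 8.05, 7.69 and 5.76 FPKM with vehicle and 3.92, 3.44 and 4.18 FPKM with R. The groups did not overlap (1.86-fold; log2 change -0.74, SE 0.14, adjusted p = 0.024). It passed in 1 of the 6 fits that left out a library, again the one without vehicle replicate 3 (up to 0.089 in the others), and not when low genes were kept (adjusted p = 0.077).

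Trim14 shares 31.3% of its exon bases with Nans, a sialic acid synthase gene on the opposite strand, and the sources do not say whether the libraries kept strand. Reads of the 2 genes may therefore not be told apart. Nans stood at 22.1 ± 1.15 FPKM with vehicle and 19.8 ± 2.77 FPKM with R (adjusted p = 0.45).

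Trim25, the RIG-I ligase, had 29.2, 25.6 and 25.5 FPKM with vehicle and 20.5, 15.6 and 22.5 FPKM with R. Its R values all lay below the vehicle values, and the difference did not pass (log2 change -0.45, 95% interval -0.78 to -0.12, adjusted p = 0.11). Trim56, a ligase linked to the DNA sensing adaptor STING, stood at 7.49 ± 0.826 and 5.89 ± 1.24 FPKM (log2 change -0.31, adjusted p = 0.25). Trim26, whose window is shown above with paired ISRE cores, stood at 13.1 ± 0.938 and 11.3 ± 0.335 FPKM, without overlap (log2 change -0.19, adjusted p = 0.24). Paired cores were thus found in a gene that fell and in one that did not pass.

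The rise of Trim16 was the 1 called in the other direction. Trim16 carries no RING finger and takes part in the clearance of damaged lysosomes. It had 4.03, 4.47 and 4.99 FPKM with vehicle and 7.45, 7.80 and 8.10 FPKM with R. The R libraries lay close together and above all vehicle libraries, at 1.73-fold (log2 change 0.68, SE 0.1, adjusted p = 0.0097). The call was kept whichever library was left out (adjusted p up to 0.045). Trim16 shares 4.13% of its 50-base stretches with Fbxw10, which stood at 0.345 ± 0.0673 FPKM with vehicle and 0.372 ± 0.123 FPKM with R.

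The 3 most abundant members showed small differences. Trim28, the corepressor that silences retroelements, had 65.9, 64.4 and 67.1 FPKM with vehicle and 67.7, 70.2 and 64.2 FPKM with R (log2 change 0.03, 95% interval -0.15 to 0.21). Trim8, a regulator of cytokine signalling, stood at 56.6 ± 1.8 and 56.9 ± 0.335 FPKM (log2 change 0.01, 95% interval -0.17 to 0.18). Trim35 stood at 47.03 ± 2.8 and 50.1 ± 4.57 FPKM (log2 change 0.09, 95% interval -0.14 to 0.31). In each of these 3 genes the groups overlapped, and the intervals exclude the fitted change of Trim12a. The change of Trim8 turned to -0.02 without vehicle replicate 3.

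**Figure D4:**
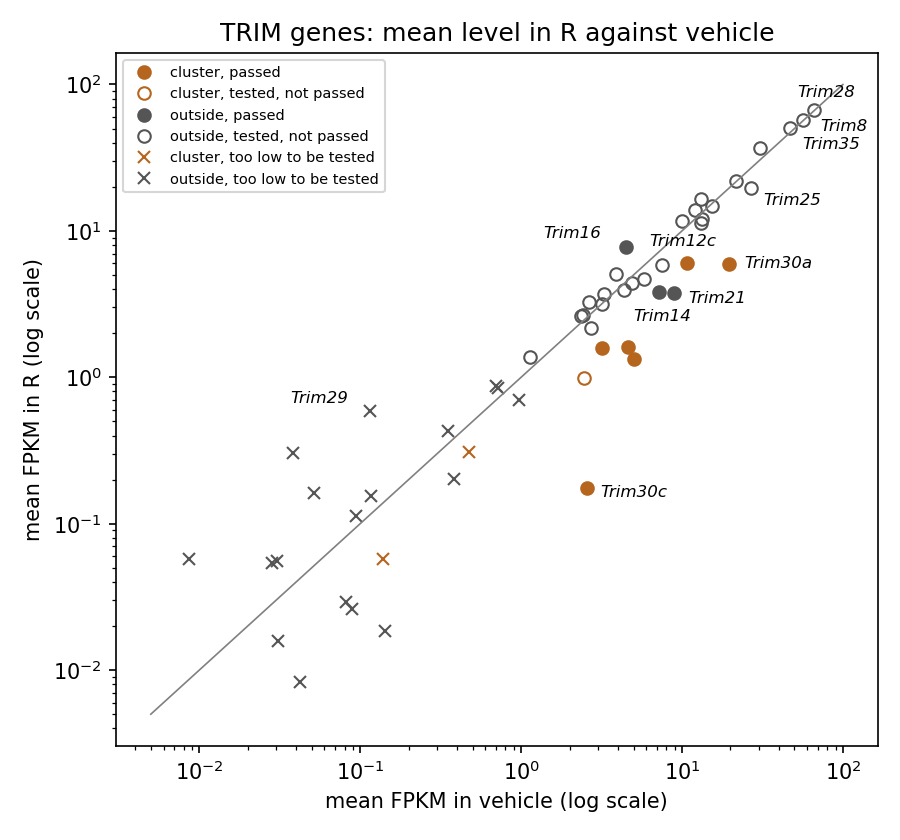
Mean FPKM in R against mean FPKM in vehicle (both axes log scale) for the TRIM genes above 0 in both groups, with the line of equality. Trim28, Trim8 and Trim35 lie on the line, the cluster genes below it with Trim30c furthest away, and Trim16 above it.

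By the C-terminal domain, all 9 called genes belonged to the 21 tested genes with a SPRY domain, of which 8 were lower and 1 higher. Outside the cluster the SPRY class had 2 lower and 1 higher among 14, beside 4.43% lower and 2.39% higher of all tested genes. Of the 13 tested members of the other classes 0 were called by limma. An unadjusted p under 0.05 was found for 2 of these, Trim3 (higher in R) and Trim37 (lower in R). At that level 12.6% of all tested genes were lower and 11.4% higher. No test of the difference between the classes was made.

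Among the chromatin cofactors, Trim24 and Trim33, a regulator of SMAD signalling, had log2 changes of 0.21 and -0.13 (adjusted p = 0.32 and 0.59). Of the NHL genes, Trim32 stood at 10.1 ± 0.423 FPKM with vehicle and 11.6 ± 0.788 FPKM with R (log2 change 0.19, adjusted p = 0.24). Trim37, the MATH-domain ligase of peroxisomes and centrioles, stood at 5.77 ± 0.483 and 4.71 ± 0.35 FPKM (log2 change -0.24, adjusted p = 0.18). The membrane-anchored Trim13 and Trim59 had changes of 0.31 and -0.14, the microtubule-binding Trim46 of 0.15, and Trim44, which carries a zinc finger of ubiquitin proteases, of -0.08. Trim23, which carries a GTPase domain of the ARF type, had a change of -0.01, whose sign turned under both rescalings of the libraries.

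Of the 32 members too low to be tested, 10 were listed at 0 in every library, among them the muscle genes Trim55 and Trim63. Among the 56 members above 0 in at least 1 library, the 3 R values lay below the 3 vehicle values in 16 and above them in 6. The background was 10.2% and 9.21% of all genes above 0 in at least 1 library. For the 34 tested members the counts were 13 and 4, against 15.5% and 13.9% of all tested genes. Trim29, an epithelial gene named here after its values were seen, had 0.101, 0.184 and 0.0576 FPKM with vehicle and 0.940, 0.416 and 0.398 FPKM with R. It was higher in each R library but too low to be tested.

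The genes that TRIM proteins work with were lower in part. Of a list of 39 partners and relatives, 35 were tested, of which 9 were lower and 0 higher. Over all tested genes 4.43% were called lower and 2.39% higher. The median log2 change of the 35 was -0.17. Among the 13 RNA and DNA sensing genes 6 were lower. Irf7, the factor that amplifies interferon production, fell from 13.2 ± 2.31 to 0.599 ± 0.231 FPKM (log2 change -3.15, adjusted p = 0.00014). It reached the filter on low values only through vehicle, so its place in these counts already required a difference. Ddx58, which encodes RIG-I, fell from 10.1 ± 1.13 to 3.66 ± 0.323 FPKM, and Ifih1, which encodes the RNA sensor MDA5, from 5.26 ± 0.958 to 1.73 ± 0.289 FPKM (adjusted p = 0.0011 and 0.005).

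Tmem173, the gene of STING, fell from 24.9 ± 2.8 to 11.2 ± 0.708 FPKM (adjusted p = 0.0017). Zc3hav1, whose antiviral protein works with Trim25, fell from 20.1 ± 1.32 to 13.1 ± 1.67 FPKM (adjusted p = 0.025). Ikbke, a kinase of the same pathway, fell from 15.1 ± 3.53 to 7.54 ± 0.812 FPKM (adjusted p = 0.023). Mavs and Irf3, which act downstream of the sensors, had log2 changes of -0.05 and 0.07 and did not pass.

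Of 7 tested ubiquitin-conjugating enzymes 1 was lower and 0 higher, beside 4.43% lower and 2.39% higher of all tested genes. The 1 was Ube2l6, which also serves the ubiquitin-like protein ISG15 (32.9 ± 3.88 to 11.98 ± 0.311 FPKM, adjusted p = 0.00065). Sp100 of the PML bodies fell from 10.01 ± 1.96 to 3.22 ± 0.231 FPKM (adjusted p = 0.0021). Pml, itself a TRIM protein under another symbol, fell from 14.6 ± 1.54 to 9.46 ± 0.861 FPKM (adjusted p = 0.026). In the TAK1 complex 0 of 4 genes and in the Trim28 silencing complex 0 of 5 were called by limma, and 0 of the 4 and 3 of the 5 had an unadjusted p under 0.05. These 3, Setdb1, Cbx3 and Cbx5, had log2 changes of -0.22, -0.25 and -0.24, beside 12.6% of all tested genes that were lower at that level.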

How the data were processed

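The authors deposited 1 table of FPKM values, as its header names them, for 49328 genes in 6 libraries (an incomplete last line was left out). The build GRCm38 (mm10) and edgeR 3.18.1 are named, per the submitters' processing notes. The aligner, counter, annotation and strandedness were not given in the sources used here. Symbols, coordinates and exon lengths came from GENCODE M21. Read totals were estimated from the steps of low FPKM times exon length (97.0% to 97.4% of low values whole within 0.02 reads). They cover counting error only.

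On the log2(FPKM + 1) scale, limma 3.58.1 (R 4.3.3) compared the groups over the 11862 genes that reached 1 FPKM in 3 or more of the 6 libraries. The fit had 2 groups, empirical Bayes with a trend, and Benjamini-Hochberg adjustment over all tested genes (threshold 0.05). On simulated data the fit called 16 of 50 genes changed 1.5-fold and 44 of 48 changed 2-fold. Of 11391 unchanged genes it called 11. The simulated spread was set in advance and not taken from these libraries. Intervals are 95% intervals from the moderated SE, without adjustment.

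Named were every cluster gene, every TRIM gene past the threshold, Trim6, Trim21, Trim68, Trim3 and Trim66, up to 3 tested genes of smallest p and the most abundant of each domain or role group, and the 8 partners of smallest p. Other genes were added after their values were seen. The members, lists and motifs were chosen with earlier results of these data known. Promoter windows came from RefSeq (GRCm38.p6), transcripts from GENCODE M21.

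Whether replicates were separate animals is not labelled. The p-values then measure only the spread between these libraries, which may be technical. Other pseudocounts, filters, scalings, a replicate block and leaving out each library were tried.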

Additional observations from a re-analysis of the deposited data

How the results depend on the processing

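The direction of the 9 called TRIM genes was the same in every alternative in which each was tested, which for Trim12a, Trim30c, Trim30d and Trim34a leaves out the minimum of 5 FPKM. The count of lower TRIM genes was 8 with either pseudocount and under both rescalings. It fell to 4 without a filter on low values, where 25575 genes were tested, and to 4 with a minimum of 5 FPKM, where 19 TRIM genes were tested. It was 4 to 9 when 1 library was left out. The count of higher TRIM genes was 1 in each fit that left out a library, 2 with a minimum of 5 FPKM and 2 with equal medians. At the minimum of 5 FPKM, Trim21 and Trim14 entered only through their vehicle values and Trim16 only through its R values. The place of these genes in those counts therefore already required a difference. Over all genes, 279 were lower and 65 higher without a filter, and 272 to 527 lower and 63 to 352 higher when 1 library was left out. The cause was not tested. The median of the tested cluster genes was -1.44 with a pseudocount of 0.1, -0.53 with a pseudocount of 5 and -0.76 without a filter, where 9 cluster genes entered it. Equal medians moved the median of all genes to 0.03.

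Among genes that did not pass, the log2 change of Trim23 turned to 0.0211 with equal medians and 0.0155 with quantile normalization, and ran from -0.0987 to 0.081 when 1 library was left out (above 0 without R replicate 2 or vehicle replicate 1). That of Trim44 ran from -0.216 to 0.0446 (above 0 without R replicate 2) and that of Trim8 from -0.0188 to 0.0234 (below 0 without vehicle replicate 3).

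With the replicate number as a block, 8 TRIM genes were lower and 1 higher, and 457 and 299 of all genes. Deviations of same-numbered libraries correlated at 0.14, -0.01 and -0.03, so the numbers were not taken as pairs. The highest correlation was that of replicate 1 in both groups (0.142), next to R replicate 2 with vehicle replicate 3 (0.137). This is a weak check, because deviations from a mean of 3 libraries are not independent. Depth limits genes such as Trim30b, with 7 to 21 estimated reads.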
